A study of Mus musculus with 30 samples.

Results

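The hypothalamus of mice fasted for 72 h was set against that of mice fasted for 24 h, to ask how its RNA differs late and early in a fast. The animals were wild-type B6 mice, and the labels used here give neither age nor sex. The comparison used 6 of the 30 libraries of the series: 3 from the 72 h fast and 3 from the 24 h fast. They were chosen by their labels, with no use of their values. The same count table holds 3 libraries from a 72 h fast with cold exposure at 18 C and 3 from fed mice. These entered the estimate of the spread and are given as levels. The labels leave unsaid if the libraries of a group were different animals, so the p-values measure the spread between these samples, which may be technical.

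The hypothalamus senses energy stores and sets food intake, body temperature, stress hormone release and the reproductive and thyroid axes. In a fast, hormones and nutrients act on its neurons, on the tanycytes that line the third ventricle and on its vessels. Immediate early genes are transcribed within minutes when neurons are driven or growth factor receptors are engaged, and are used as a record of recent activity. The calcium and cAMP pathways reach many of them through the factor CREB, which binds the cAMP response element in their promoters.

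Levels are CPM (counts-per-million), set on a common scale by the TMM method. A change is the log2 fold change of 72 h minus 24 h with its SE, so a negative value means lower at 72 h. Genes were called at an adjusted p below 0.05, by edgeR's quasi-likelihood test with Benjamini-Hochberg adjustment. Of 20408 genes tested, 116 (0.568%) were called higher at 72 h and 217 (1.06%) lower, 333 in all (1.63%). More than a 2-fold change was seen in 67 of the higher and 112 of the lower genes. The lower genes were 202 protein-coding genes and 10 long noncoding RNAs, and the higher ones were 75 and 35.

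The depth was 35624404, 31512969 and 43397395 counts in the 72 h libraries, against 30653926, 27699391 and 32445690 counts in the 24 h libraries. Library 2 of the 24 h group stood apart from libraries 1 and 3. Libraries 1 and 3 were closer to each other than any other pair within a group, with a chi-square per degree of freedom over genes of 3.51, against 15.8 to 106 for the other pairs. Genes spanning over 100 kb took 38.0%, 38.6% and 40.1% of the counts in the 72 h libraries, against 35.5%, 27.6% and 34.7% in the 24 h libraries. Ribosomal protein genes took 0.673%, 0.653% and 0.600% at 72 h, against 0.742%, 1.15% and 0.769% at 24 h. Calls rested on few libraries. Without library 2 of the 24 h group 7 genes (0.0335%) were called higher and 64 (0.306%) lower, and without library 3 of that group 13 and 107. Without library 1 of the 72 h group 8 were called higher and 69 lower, without library 2 of it 0 and 1, and without library 3 of it none. In that last fit edgeR gave 3380 genes an unadjusted p below 0.05. No gene was called in all 6 of these fits, and the named genes were called in at most 4. In the fed group, library 2 had 2919 CPM of skeletal muscle genes in sum, against 59.4 and 100.4 CPM in libraries 1 and 3.

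The promoters of 4 called immediate early genes are printed because their genes fell together and carry the cAMP response element half-site. They are RefSeq sequences of GRCm38.p6, from 250 bases before to 50 bases after the transcription start, on the strand of the gene. Capitals mark TGACG, or CGTCA where it lies on the other strand. Fos lies at chr12:85473640-85473939 on the plus strand, Nr4a1 at chr15:101266596-101266895 on the plus strand, Nr4a3 at chr4:48045055-48045354 on the plus strand and Homer1 at chr13:93303507-93303806 on the plus strand.
Fos: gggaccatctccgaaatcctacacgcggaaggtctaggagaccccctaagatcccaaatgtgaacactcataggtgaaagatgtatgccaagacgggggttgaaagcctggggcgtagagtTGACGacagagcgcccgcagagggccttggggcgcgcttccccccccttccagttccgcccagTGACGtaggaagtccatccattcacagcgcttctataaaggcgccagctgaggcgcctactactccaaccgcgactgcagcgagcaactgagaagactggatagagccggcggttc
Nr4a1: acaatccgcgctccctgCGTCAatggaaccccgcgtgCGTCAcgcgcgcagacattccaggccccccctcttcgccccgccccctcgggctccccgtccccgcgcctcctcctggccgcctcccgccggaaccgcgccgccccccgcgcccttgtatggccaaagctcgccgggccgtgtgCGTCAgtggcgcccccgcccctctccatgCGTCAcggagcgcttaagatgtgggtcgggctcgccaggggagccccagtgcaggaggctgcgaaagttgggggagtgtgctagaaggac
Nr4a3: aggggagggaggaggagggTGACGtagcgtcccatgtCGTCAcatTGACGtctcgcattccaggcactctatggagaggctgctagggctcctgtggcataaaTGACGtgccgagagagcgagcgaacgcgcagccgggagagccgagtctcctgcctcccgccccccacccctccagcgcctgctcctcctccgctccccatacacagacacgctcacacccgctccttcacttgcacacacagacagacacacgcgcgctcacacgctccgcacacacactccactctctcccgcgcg
Homer1: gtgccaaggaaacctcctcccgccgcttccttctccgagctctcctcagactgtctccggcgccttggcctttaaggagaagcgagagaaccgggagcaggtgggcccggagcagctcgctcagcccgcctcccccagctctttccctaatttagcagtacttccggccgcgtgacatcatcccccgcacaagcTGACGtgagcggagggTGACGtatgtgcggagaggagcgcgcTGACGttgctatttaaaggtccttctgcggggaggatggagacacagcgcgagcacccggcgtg

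The motif was searched on both strands, and no other motif was searched. It occurs 2 times in the Fos window, 4 times in each of the Nr4a1 and Nr4a3 windows and 3 times in the printed Homer1 window. The table lists 2 promoters for Homer1, and the other one does not hold the motif. Of the 15 immediate early genes called lower, 12 have a promoter in the table, and 11 of these (91.7%) hold the motif in at least 1 listed promoter. Fosl2 has none of these letters in its window. The motif stands in 20.8% of all 32851 promoters of this length and in at least 1 promoter of 23.0% of 27025 genes. Among the called striatal genes described below it stands in 4 of 13 (30.8%). Immediate early genes that were not called were not set beside these, so nothing is read from this share about the fall. A match is a description of these letters and not a site.

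Immediate early genes were lower after 72 h than after 24 h. Of 42 tested, 15 (35.7%) were called lower and 0 higher, against 1.06% and 0.568% of all genes. The median change was -0.70, against 0.005 over all genes. Every 72 h library lay below every 24 h library in 31 of the 42, where 17.1% of all genes did so. In bulk tissue fewer cells of a type and less RNA per cell cannot be told apart. The list holds transcription factors of the AP-1, EGR and NR4A families and effectors that act at the synapse.

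Among the AP-1 factors, Fos (ENSMUSG00000021250, GRCm38 chromosome 12, 85473890 to 85477273) had 3.30, 2.40 and 3.68 CPM in the 72 h libraries, against 10.2, 17.9 and 10.6 CPM in the 24 h libraries. The groups were far apart, and library 2 was the highest of the 24 h group (change -2.03 ± 0.28, edgeR adjusted p = 0.00800). Junb, a partner of Fos (chromosome 8, 84974484 to 84978718), had 6.55, 5.68 and 4.73 CPM at 72 h, against 14.8, 29.0 and 16.2 CPM at 24 h. It was 3.53-fold lower (-1.82 ± 0.23, edgeR adjusted p = 0.00800). Fosb fell by 2.10 ± 0.40 and Fosl2 by 1.30 ± 0.20 on the log2 scale, with edgeR adjusted p of 0.0268 and 0.0123.

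The EGR zinc finger factors Egr3, Egr4 and Egr2 gave the steepest falls among the 15 called genes. Egr3 (chromosome 14, 70077203 to 70082614) had 5.23, 2.25 and 3.43 CPM at 72 h, against 16.9, 43.5 and 21.9 CPM at 24 h. The lowest 24 h library was above the highest 72 h library although each group spread widely (-2.91 ± 0.43, edgeR adjusted p = 0.0146). Egr1 had 31.5, 19.8 and 17.5 CPM at 72 h, against 61.1, 129.5 and 66.5 CPM at 24 h. Egr4 fell by 2.74 ± 0.45 and Egr2 by 2.57 ± 0.56 on the log2 scale (edgeR adjusted p = 0.0146 and 0.0434). Egr2 was a gene of few counts, with 0.406, 0.729 and 0.682 CPM at 72 h.

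The orphan nuclear receptors Nr4a1 and Nr4a3 fell as well. Nr4a1 (chromosome 15, 101254269 to 101274795) had 12.2, 10.4 and 12.4 CPM at 72 h, against 25.8, 42.1 and 28.6 CPM at 24 h (-1.46 ± 0.20, edgeR adjusted p = 0.00800). Nr4a3 had 8.5, 5.83 and 7.20 CPM at 72 h, against 15.3, 34.4 and 16.6 CPM at 24 h (-1.62 ± 0.34, edgeR adjusted p = 0.0419). The third member, Nr4a2, was not called, with a change of 0.04. Npas4, a factor that responds to calcium entry in neurons, had 2.49, 4.13 and 3.25 CPM at 72 h, against 9.79, 6.24 and 9.57 CPM at 24 h, and is the member of the 15 in which library 2 was not the highest of the 24 h group.

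Synaptic effectors of the list followed. Arc, which removes AMPA receptors from synapses (chromosome 15, 74669083 to 74672570), had 9.23, 9.66 and 7.86 CPM at 72 h, against 19.99, 37.6 and 21.6 CPM at 24 h (-1.57 ± 0.21, edgeR adjusted p = 0.00800). Homer1, a scaffold of metabotropic glutamate receptors with a short activity-induced form (chromosome 13, 93299635 to 93405129), had 79.0, 68.1 and 75.9 CPM at 72 h, against 126, 181 and 129 CPM at 24 h. The counts do not separate its forms. Rgs2, which shortens G protein signals, fell by 0.96 ± 0.18 and the factor Klf2 by 1.06 ± 0.20 (edgeR adjusted p = 0.0228 and 0.0232). Feedback phosphatases of the MAP kinase pathway were not called. Dusp6 had 17.9, 13.2 and 13.8 CPM at 72 h, against 21.0, 34.5 and 23.4 CPM at 24 h (edgeR adjusted p = 0.0531), and Dusp1 had 16.1, 12.0 and 18.4 CPM, against 23.9, 29.5 and 23.3 CPM (edgeR adjusted p = 0.0650).

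Library 2 was the highest of the 24 h group in 14 of the 15 called genes. In all 15, libraries 1 and 3 of that group, which were nearly alike, lay above every 72 h library. The groups did not overlap in any of the 333 called genes, so nothing about these 15 is read from this. Without library 2 of the 24 h group 10 members were called lower, where 0.306% of all genes were, and the median was -0.54. Without libraries 1 or 3 of the 24 h group 14 and 12 were called, and without library 1 of the 72 h group 9. Over all genes those fits called 259 of 20947, 107 of 20940 and 69 of 20846 lower. Without library 2 or library 3 of the 72 h group none was called by edgeR. With all 6 libraries 32 of the 42 had a lower level at an unadjusted p below 0.05 (12.2% of all genes did). DESeq2 called 24 lower, where it called 5.02% of all genes lower. The fed and cold libraries give the levels around the fast: Fos averaged 6.90 ± 1.04 CPM in cold 72 h libraries and 13.3 ± 4.10 CPM in fed libraries, and Egr3 5.57 ± 2.44 CPM in cold 72 h libraries and 30.1 ± 3.15 CPM in fed libraries (SD, n = 3 each).

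**Figure D1:**
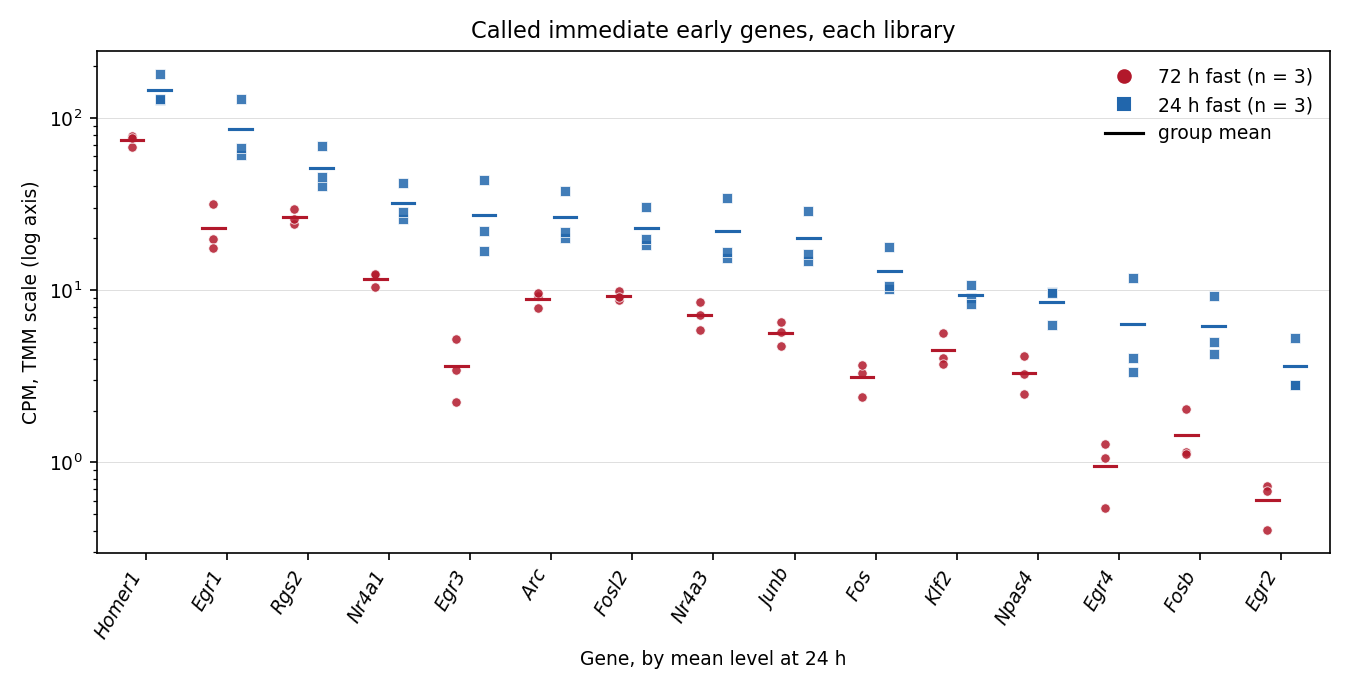
CPM (log axis) of the 15 called immediate early genes in each library, with 72 h libraries as red circles, 24 h libraries as blue squares and group means as bars. In each gene the 3 squares lie above the 3 circles, and Fos is near 3 CPM at 72 h. The groups lie apart in all 333 called genes.

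Genes of striatal projection neurons, the GABAergic medium spiny neurons of the basal ganglia, were lower in the 72 h libraries. Of 30 tested, 18 (60%, against 1.06% of all genes) were called lower and 0 higher, with a median change of -1.34. All 30 had every 72 h library below every 24 h library, where 34.2% of all genes had groups apart in either direction. The list holds dopamine and adenosine receptors, their signalling proteins and the peptides of these neurons. Many are also expressed in smaller numbers of hypothalamic, amygdalar or cortical neurons.

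Among receptors, Gpr6, an orphan receptor of indirect pathway neurons (chromosome 10, 41069977 to 41072285), had 1.95, 2.10 and 1.32 CPM at 72 h, against 8.67, 13.6 and 8.20 CPM at 24 h (-2.51 ± 0.40, edgeR adjusted p = 0.0146). The adenosine receptor Adora2a had 3.38, 1.15 and 1.25 CPM at 72 h, against 19.7, 27.7 and 19.2 CPM at 24 h. Its fall was the steepest among the called genes named here (-3.52 ± 0.74, edgeR adjusted p = 0.0482), and its call was lost in each of the 6 fits that left out a library. The dopamine receptor Drd1 had 10.9, 3.83 and 3.34 CPM at 72 h, against 32.9, 57.2 and 33.7 CPM at 24 h. Drd2, the other main dopamine receptor, had 19.3, 30.7 and 22.4 CPM at 72 h, against 43.2, 45.3 and 43.7 CPM at 24 h, and was not called (edgeR adjusted p = 0.0734).

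Signalling proteins of these neurons were called as well. Arpp21, a cAMP-regulated phosphoprotein (chromosome 9, 112065091 to 112235938), had 207, 164 and 199 CPM at 72 h, against 356, 379.8 and 357 CPM at 24 h (-0.94 ± 0.11, edgeR adjusted p = 0.00800). Pde10a, the phosphodiesterase of these neurons, fell by 0.65 ± 0.14 and the adenylyl cyclase Adcy5 by 0.62 ± 0.13 (edgeR adjusted p = 0.0390 for each). Ppp1r1b, the dopamine- and cAMP-regulated phosphatase inhibitor, had 10.6, 5.04 and 5.00 CPM at 72 h, against 29.6, 56.1 and 31.9 CPM at 24 h, with 75.4% of its span shared with other genes. Of transcription factors that specify these neurons, Bcl11b fell by 1.84 ± 0.31 and Meis2 by 1.38 ± 0.24 (edgeR adjusted p = 0.0220 and 0.0211). Foxp1, of which other genes share 44.4% of the span, had a change of -0.48 ± 0.11 and was not called (edgeR adjusted p = 0.0526).

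Within the 72 h group library 1 was the highest in 14 of the 18 called genes, and library 2 was the highest of the 24 h group in 14. In all 18 the nearly alike libraries 1 and 3 of the 24 h group lay above every 72 h library. The groups did not overlap in any of the 333 called genes, so nothing about these 18 is read from this. Without library 2 of the 24 h group 3 of the 30 were called, without libraries 1 or 3 of it 11 and 5, and without library 1 of the 72 h group 7. Over all genes those fits called 64 of 20924, 259 of 20947, 107 of 20940 and 69 of 20846 lower. Without library 2 or 3 of the 72 h group edgeR called none. The 6 libraries fitted alone gave 24 called lower, where 216 of 19485 genes were. The list's median over the fits that left out a library lay between -1.42 and -1.15.

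**Figure D2:**
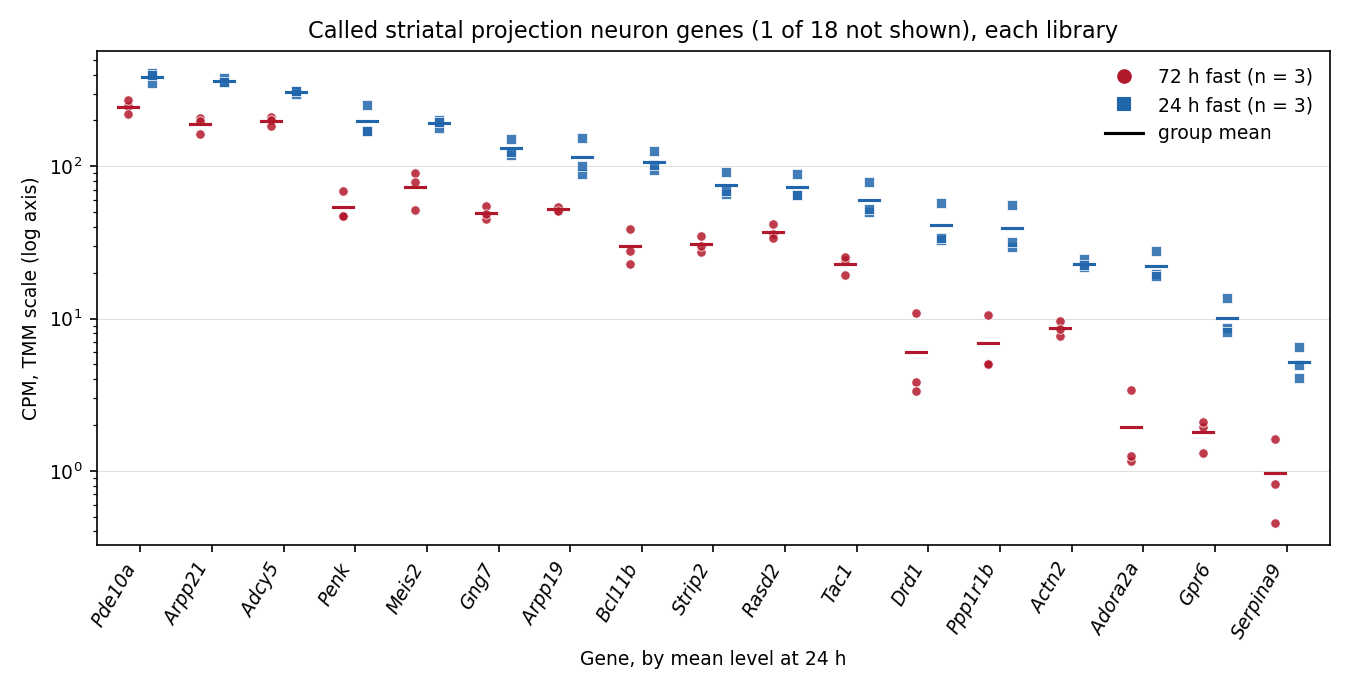
CPM (log axis) of the called striatal projection neuron genes in each library, 1 of the 18 not being shown, with 72 h libraries as red circles, 24 h libraries as blue squares and group means as bars. The 2 groups do not overlap in any gene plotted, as in all 333 called genes, and Gpr6 spans 1.32 to 2.10 CPM at 72 h.

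Markers of other brain regions moved unevenly. The 32 tested transcription factors of hypothalamic nuclei summed to 487, 464 and 463 CPM at 72 h, against 473, 469 and 471 CPM at 24 h. Of these, 1 was called lower (3.125%, against 1.06% of all genes). It was Dlx5, a factor of GABAergic precursors, with 5.20, 4.56 and 4.2 CPM at 72 h, against 8.64, 11.3 and 10.3 CPM at 24 h (-1.11 ± 0.25, edgeR adjusted p = 0.0463). Defining hypothalamic factors were present in every library. Nkx2-1, which specifies the ventral hypothalamus, had 8.01, 11.3 and 7.93 CPM at 72 h, against 8.70, 8.23 and 10.9 CPM at 24 h. Sim1, a factor of the paraventricular nucleus, had 16.3, 29.9 and 21.8 CPM at 72 h, against 23.7, 12.3 and 21.8 CPM at 24 h.

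Of 18 cortical markers 2 were called lower (11.1%, against 1.06% of all genes). Lamp5, a membrane protein of cortical neurons, had 5.6, 6.78 and 8.68 CPM at 72 h, against 14.4, 25.6 and 15.8 CPM at 24 h (-1.40 ± 0.23, edgeR adjusted p = 0.0146), and Nrgn, a calmodulin-binding protein of forebrain dendrites, fell by 1.26 ± 0.23 (edgeR adjusted p = 0.0228). The cortical median was -0.69, and -0.29 without library 2 of the 24 h group. The glutamate transporter Slc17a7, a defining marker, had 40.5, 4.56 and 27.1 CPM at 72 h, against 27.6, 122 and 40.2 CPM at 24 h. Its groups overlapped, and a single 24 h library held the high value. Thalamic markers held 0 called genes among 18 tested by edgeR, with 2 of the 18 higher at an unadjusted p below 0.05, where 11.3% of all genes were. DESeq2 called 1 of these markers higher, where it called 3.68% of all genes higher. Their median was 0.16 and turned to -0.12 under a correction for gene span. They summed to 3438, 2245 and 3295 CPM at 72 h, against 2540, 2447 and 2528 CPM at 24 h. Prkcd, a kinase of thalamic relay neurons, had 189.6, 26.98 and 118 CPM at 72 h, against 115, 133 and 110.1 CPM at 24 h. The content of cortical and thalamic markers thus varied between libraries of the same group. The 30 striatal genes summed to 1603, 1355 and 1484 CPM at 72 h, against 2899, 3224 and 2930 CPM at 24 h. The part of regional content in the striatal and immediate early results was not tested.

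Few feeding peptides were called. Of 39 tested, 2 were called lower (5.13%, against 1.06% of all genes) and 0 higher. Both are also striatal peptides. Penk, the enkephalin precursor (chromosome 4, 4133531 to 4138819), had 69.0, 46.9 and 47.1 CPM at 72 h, against 171.5, 254 and 171.7 CPM at 24 h (-1.87 ± 0.35, edgeR adjusted p = 0.0318). Tac1, the substance P precursor, had 24.2, 25.4 and 19.3 CPM at 72 h, against 49.9, 78.4 and 52.7 CPM at 24 h (-1.39 ± 0.30, edgeR adjusted p = 0.0477). Tac1 was called in none of the fits that left out a library, and Penk in 1.

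The appetite peptides of the arcuate nucleus were not called. Agrp, which drives feeding, had 4.63, 5.89 and 5.64 CPM at 72 h, against 5.01, 4.98 and 5.33 CPM at 24 h (0.08 ± 0.15, edgeR adjusted p = 0.771), with 59.9% of its span shared with other genes. Npy, made by the same neurons, had 16.0, 14.7 and 13.4 CPM at 72 h, against 11.5, 23.1 and 13.9 CPM at 24 h. Pomc, from which alpha-MSH is cut to curb feeding, had 3.36, 5.59 and 3.73 CPM at 72 h, against 3.94, 5.80 and 3.29 CPM at 24 h. Cartpt, a satiety peptide, had 13.6, 28.5 and 24.4 CPM at 72 h, against 16.6, 30.3 and 16.7 CPM at 24 h. The ranges of the 2 groups overlapped for all 4, and their SEs, 0.15 to 0.36 on the log2 scale, bound what could be seen.

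Other hypothalamic peptides were not called either. Hcrt, the orexin precursor, had 34.7, 56.7 and 34.8 CPM at 72 h, against 33.8, 41.0 and 29.1 CPM at 24 h. Crh, which starts the stress hormone cascade, had 3.09, 2.34 and 1.73 CPM at 72 h, against 3.29, 6.28 and 2.75 CPM at 24 h (-0.78 ± 0.37, edgeR adjusted p = 0.220). Sst, somatostatin, had 44.0, 44.6 and 43.7 CPM at 72 h, against 53.5, 96.3 and 54.8 CPM at 24 h, without overlap but not called (edgeR adjusted p = 0.109). Trh, Avp, Oxt, Ghrh, Gal and Pmch had changes between -0.35 and 0.20, none called.

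Receptors for feeding signals held 3 called genes of 58 tested, all lower (5.17%, against 1.06% of all genes). The list's median was -0.09. Npy1r, the Y1 receptor through which NPY acts (chromosome 8, 66697192 to 66706792), had 12.2, 10.1 and 13.9 CPM at 72 h, against 19.2, 23.0 and 17.7 CPM at 24 h (-0.72 ± 0.16, edgeR adjusted p = 0.0430). Npy5r, the Y5 receptor, had 3.06, 3.49 and 3.43 CPM, against 5.04, 5.39 and 5.51 CPM, and was not called (edgeR adjusted p = 0.0608). Gpr83, a receptor for the proSAAS-derived peptide PEN, was 2.38-fold lower, with 15.1, 14.8 and 14.5 CPM at 72 h, against 33.0, 38.5 and 34.5 CPM at 24 h (-1.25 ± 0.21, edgeR adjusted p = 0.0146). Ramp1, a co-receptor for CGRP, fell by 0.64 ± 0.13 (edgeR adjusted p = 0.0387). Lepr, the leptin receptor, had 11.2, 14.5 and 13.3 CPM at 72 h, against 9.79, 8.05 and 7.85 CPM at 24 h, without overlap but not called (0.60 ± 0.21, edgeR adjusted p = 0.122). None of the feeding peptides or receptors was called without library 2 of the 24 h group, and Npy1r was called in none of the 6 such fits.

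Genes that respond to glucocorticoids and to fuel supply were lower at 72 h in part. Of 38 glucocorticoid-responsive genes 3 were called lower (7.89%, against 1.06% of all genes) and 0 higher. The median was -0.45, and 36 of the 38 changes were negative, where 49.5% of all changes were. Pdk4, the kinase that shuts pyruvate dehydrogenase when fat is burned (chromosome 6, 5483351 to 5496309), had 8.31, 11.8 and 9.84 CPM at 72 h, against 16.9, 22.8 and 20.4 CPM at 24 h (-1.01 ± 0.17, edgeR adjusted p = 0.0146). Fkbp5, whose protein dampens the glucocorticoid receptor (chromosome 17, 28399094 to 28517527), had 57.2, 48.9 and 49.3 CPM at 72 h, against 75.9, 67.4 and 74.2 CPM at 24 h (-0.48 ± 0.10, edgeR adjusted p = 0.0326), and its call ended when the 6 libraries were fitted alone (edgeR adjusted p = 0.0524). Bcl6, a transcriptional repressor, fell by 0.46 ± 0.09 (edgeR adjusted p = 0.0287). Without library 1 of the 24 h group 4 were called, without library 2 of it 2 and without library 3 of it 1. Over all genes those fits called 259, 64 and 107 lower. Without any 1 of the 72 h libraries edgeR called none. With all 6 libraries, however, 20 of the 38 were lower at an unadjusted p below 0.05, where 12.2% of all genes were. DESeq2 called 14 lower, where it called 5.02% of all genes lower.

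The uncalled members with the smallest p include 3 near the threshold. Klf15, a factor of fasting metabolism, had 40.1, 42.5 and 42.5 CPM at 72 h, against 50.8, 58.3 and 54.4 CPM at 24 h (edgeR adjusted p = 0.0522). Tsc22d3, which encodes the anti-inflammatory protein GILZ, had 88.9, 83.9 and 88.4 CPM, against 115, 159 and 112 CPM (edgeR adjusted p = 0.0531). Ddit4, an inhibitor of mTORC1, had 26.4, 23.1 and 28.4 CPM at 72 h, against 39.2, 48.9 and 37.0 CPM at 24 h (edgeR adjusted p = 0.0545). In these 3 genes the groups did not overlap.

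Of 38 glycolysis, glucose transport and glycogen genes 2 were called lower (5.26%, against 1.06% of all genes), Pdk4 and Slc2a1. In 21 every 72 h library lay below every 24 h library, where 17.1% of all genes did so. Slc2a1, the glucose transporter GLUT1 of the blood-brain barrier and of astrocytes (chromosome 4, 119108711 to 119137983), had 35.2, 34.4 and 36.8 CPM at 72 h, against 55.7, 56.6 and 52.7 CPM at 24 h. It was 1.55-fold lower (-0.63 ± 0.09, edgeR adjusted p = 0.00929) and stayed called in 4 of the 6 fits without a library. Slc2a3, the neuronal transporter GLUT3, had 72.9, 82.1 and 79.1 CPM at 72 h, against 89.6, 105 and 93.4 CPM at 24 h, and was not called (edgeR adjusted p = 0.108). Of 41 genes of fatty acid oxidation and ketone use Pdk4 was the 1 called (2.44%, against 1.06% of all genes called lower). Lpl, lipoprotein lipase, had 4.79, 4.04 and 3.50 CPM at 72 h, against 11.6, 21.3 and 13.7 CPM at 24 h, with an edgeR adjusted p of 0.0734. Of 42 genes of cholesterol and fatty acid synthesis edgeR called 0. At an unadjusted p below 0.05, 3 were higher and 1 lower, where 11.3% and 12.2% of all genes were. DESeq2 called 1 higher, where it called 3.68% of all genes higher.

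Levels in the other groups are given for a few genes, which are not typical. Of the 217 genes called lower, 215 had a cold 72 h mean below their 24 h mean. Fkbp5 and Xdh did not. Fkbp5 averaged 51.8 ± 4.72 CPM at 72 h and 72.5 ± 4.47 CPM at 24 h, with 76.7 ± 7.74 CPM in cold 72 h libraries and 36.4 ± 0.984 CPM in fed ones (SD, n = 3 each). Pdk4 averaged 15.6 ± 1.69 CPM in cold 72 h libraries and 14.1 ± 2.21 CPM in fed ones, both above its mean of 9.97 ± 1.73 CPM at 72 h. Ddit4 averaged 52.8 ± 10.7 CPM in cold 72 h libraries and 27.1 ± 4.41 CPM in fed ones. Fmo2, a flavin monooxygenase, and Xdh, xanthine dehydrogenase, were named after their values were seen. Fmo2 (chromosome 1, 162874317 to 162898726) had 2.08, 1.94 and 1.86 CPM at 72 h, against 7.45, 8.68 and 7.76 CPM at 24 h, with a cold mean of 7.30 ± 2.38 CPM and a fed mean of 7.15 ± 3.75 CPM (-2.02 ± 0.33, edgeR adjusted p = 0.0146). Xdh had 9.48, 9.39 and 9.36 CPM at 72 h, against 18.0, 14.4 and 16.6 CPM at 24 h, with a cold mean of 16.5 ± 2.67 CPM. Fmo2 was called in 2 of the 6 fits without a library, and Xdh in 1. The 72 h libraries serve both here and wherever the cold libraries are set against them, so these levels were not compared by a test.

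**Figure D3:**
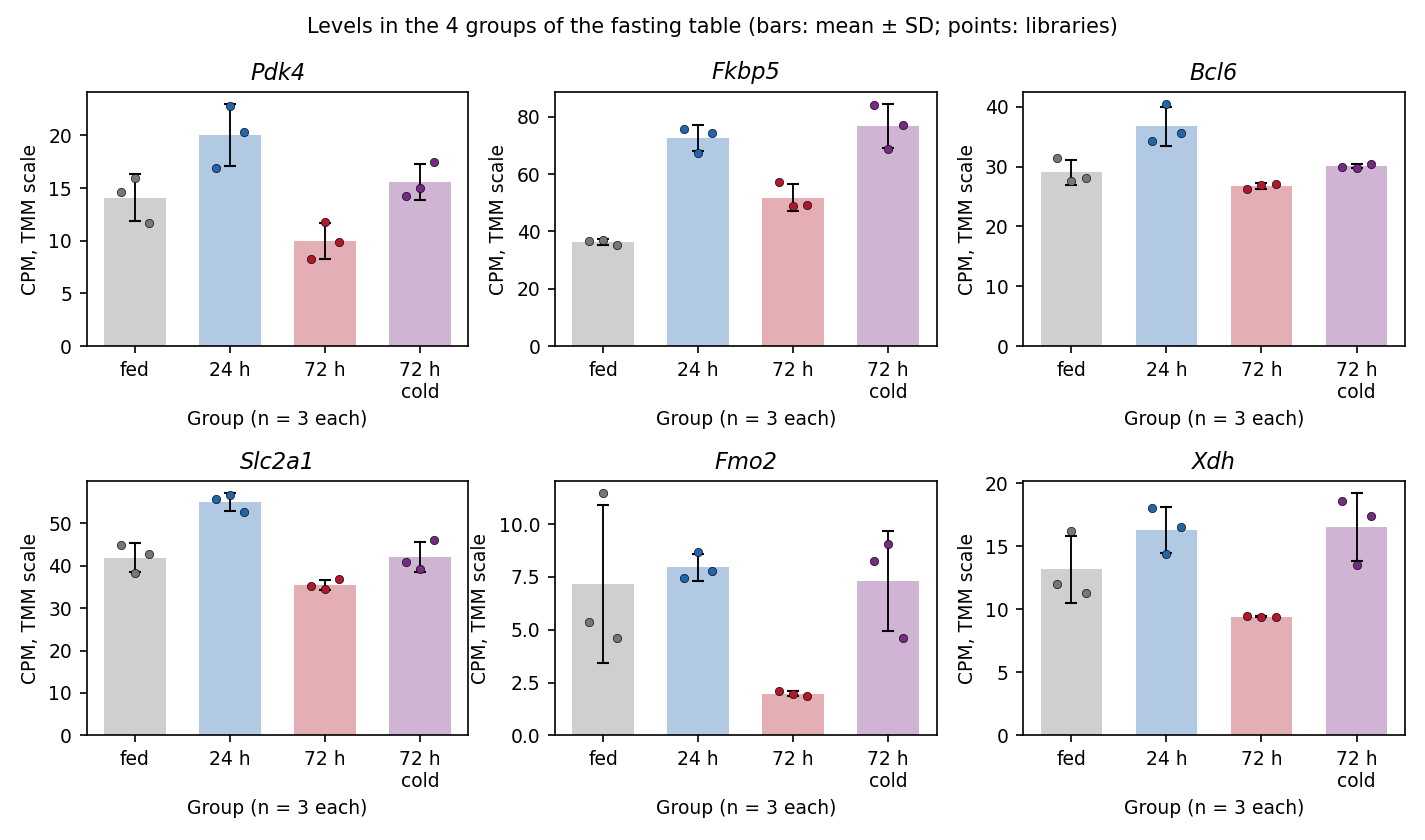
CPM (linear axis) of Pdk4, Fkbp5, Bcl6, Slc2a1, Fmo2 and Xdh in fed, 24 h, 72 h and cold 72 h libraries, with bars for means, error bars for the SD and points for libraries (n = 3 each). Each gene is lower at 72 h than at 24 h, and Fmo2 is near 2 CPM at 72 h. The cold means of Fkbp5 and Xdh lie above their 24 h means, unlike those of 215 of the 217 genes called lower.

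Genes of protein synthesis and respiration lay lower in the 72 h libraries, with 1 single call. Of 73 cytosolic ribosomal protein genes edgeR called 0 and DESeq2 25 lower (5.02% of all genes were), and 60 had a lower level at an unadjusted p below 0.05 (12.2% of all genes). All 73 changes were negative, with a median of -0.47, of -0.38 under a correction for gene span and of -0.23 without library 2 of the 24 h group. Rpl38, a subunit of the large ribosomal particle, had 71.6, 61.3 and 61.6 CPM at 72 h, against 84.2, 161 and 88.8 CPM at 24 h, where library 2 was far above libraries 1 and 3. Of 73 nuclear-encoded subunits of oxidative phosphorylation 1 was called lower (1.37%, near the 1.06% of all genes), so nothing is read from that count. It was Ndufa1 of complex I, with 16.2, 14.1 and 13.6 CPM at 72 h, against 23.8, 37.8 and 21.1 CPM at 24 h (-0.91 ± 0.20, edgeR adjusted p = 0.0439). The median of that list was -0.39, and -0.19 without library 2 of the 24 h group. Ribosomal and respiratory genes are short, with median spans of 3232 and 7284 bases.

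Chaperones and growth genes held a few calls. Of 24 heat shock and cytosolic chaperone genes 2 were called lower (8.33%, against 1.06% of all genes). In 19 every 72 h library lay below every 24 h library, where 17.1% of all genes did so. Chordc1, a co-chaperone of HSP90, had 62.8, 69.5 and 63.4 CPM at 72 h, against 92.8, 115 and 95.3 CPM at 24 h (-0.63 ± 0.10, edgeR adjusted p = 0.0117), and Dnajb5, an HSP40 family member, fell by 0.61 ± 0.13 (edgeR adjusted p = 0.0387). Of 26 cell cycle genes 2 were called lower (7.69%, against 1.06% of all genes). Mki67, the proliferation marker Ki-67, had 0.704, 0.517 and 0.614 CPM at 72 h, against 1.85, 3.18 and 1.92 CPM at 24 h (-1.91 ± 0.34, edgeR adjusted p = 0.0199). Ccnd2, cyclin D2, had 13.6, 15.6 and 15.6 CPM at 72 h, against 25.9, 32.3 and 27.1 CPM at 24 h (-0.93 ± 0.15, edgeR adjusted p = 0.0146). A single gene of each of these 2 lists was called without library 2 of the 24 h group, and without library 2 or 3 of the 72 h group none was by edgeR.

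Glial and vascular lists changed in few members. Of 47 oligodendrocyte and myelin genes 2 were called higher (4.26%, against 0.568% of all genes) and 0 lower, and the median was 0.06. Opalin, a sialylated myelin protein of mature oligodendrocytes (chromosome 19, 41061710 to 41077113), had 25.9, 22.7 and 29.5 CPM at 72 h, against 12.6, 12.0 and 12.3 CPM at 24 h, where the 24 h libraries lay close together (1.08 ± 0.24, edgeR adjusted p = 0.0478). It averaged 14.3 ± 6.71 CPM in cold 72 h libraries and 25.2 ± 3.78 CPM in fed ones. Prr5l, a component of mTORC2, had 72.7, 82.5 and 102 CPM at 72 h, against 49.9, 29.8 and 53.3 CPM at 24 h (0.95 ± 0.21, edgeR adjusted p = 0.0455). Mbp, the main myelin protein of the list, had a change of 0.06 ± 0.22 and was not called. St18, a zinc finger factor of oligodendrocyte maturation named after its values were seen, had 147, 154 and 136 CPM at 72 h, against 73.5, 44.8 and 73.9 CPM at 24 h (1.18 ± 0.23, edgeR adjusted p = 0.0302). Opalin and Prr5l were called in none of the 6 fits without a library, and St18 in 1.

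Of 36 endothelial and blood-brain barrier genes 2 were called lower (5.56%, against 1.06% of all genes). These were Slc2a1 and Ly6c1, a surface antigen of brain endothelium, and the list's median was -0.25. Other members went either way. Mfsd2a, a lipid transporter of the barrier, had 25.6, 23.2 and 25.4 CPM at 72 h, against 33.4, 40.6 and 33.6 CPM at 24 h, and Tek, the angiopoietin receptor, had 26.0, 28.1 and 27.6 CPM, against 20.6, 12.3 and 18.6 CPM, neither called (edgeR adjusted p = 0.0728 and 0.0734). Of 25 microglial and myeloid genes Selplg was the 1 called lower (4%, against 1.06% of all genes). It had 9.80, 8.36 and 12.9 CPM at 72 h, against 19.2, 26.0 and 20.1 CPM at 24 h (-1.07 ± 0.20, edgeR adjusted p = 0.0247). Cx3cr1, a defining microglial receptor, had a change of 0.09 ± 0.13. Of 24 genes on the tanycyte list 2 were called lower (8.33%, against 1.06% of all genes). Crybb1, a crystallin, had 1.03, 1.37 and 1.5 CPM at 72 h, against 2.91, 3.58 and 2.64 CPM at 24 h (edgeR adjusted p = 0.0427), and the other was Ppp1r1b, which is on the striatal list too. Nothing is read about tanycytes from these 2 calls. Without library 2 of the 24 h group 1 endothelial gene and 0 microglial or tanycyte genes were called by edgeR. With all 6 libraries DESeq2 called 8 of 36, 6 of 25 and 3 of 24 lower, where it called 5.02% of all genes lower. It called 1 endothelial and 1 tanycyte gene higher.

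Lists of astrocytes, reactive astrocytes, oligodendrocyte precursors, smooth muscle and pericytes, meninges, ependyma, choroid plexus, the circadian clock, granins and prohormone processing, autophagy, the proteasome, the ER chaperones, the ATF4 response, metallothioneins, cold-inducible RNA-binding proteins, interferon response, pituitary hormones, haemoglobin and skeletal muscle held no gene called by edgeR. The medians of these lists are plotted beside the others. At an unadjusted p below 0.05, which 12.2% of all genes passed as lower and 11.3% as higher, the astrocyte list had 5 lower genes of 31, the ependymal list 5 higher of 15, the proteasome 16 lower of 31 and the clock 4 lower and 1 higher of 22. DESeq2 called 0 astrocyte genes, 2 higher ependymal, 3 lower proteasome and 1 lower clock gene, where it called 5.02% of all genes lower and 3.68% higher. The astrocyte and clock counts are small, and nothing is read from them.

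**Figure D4:**
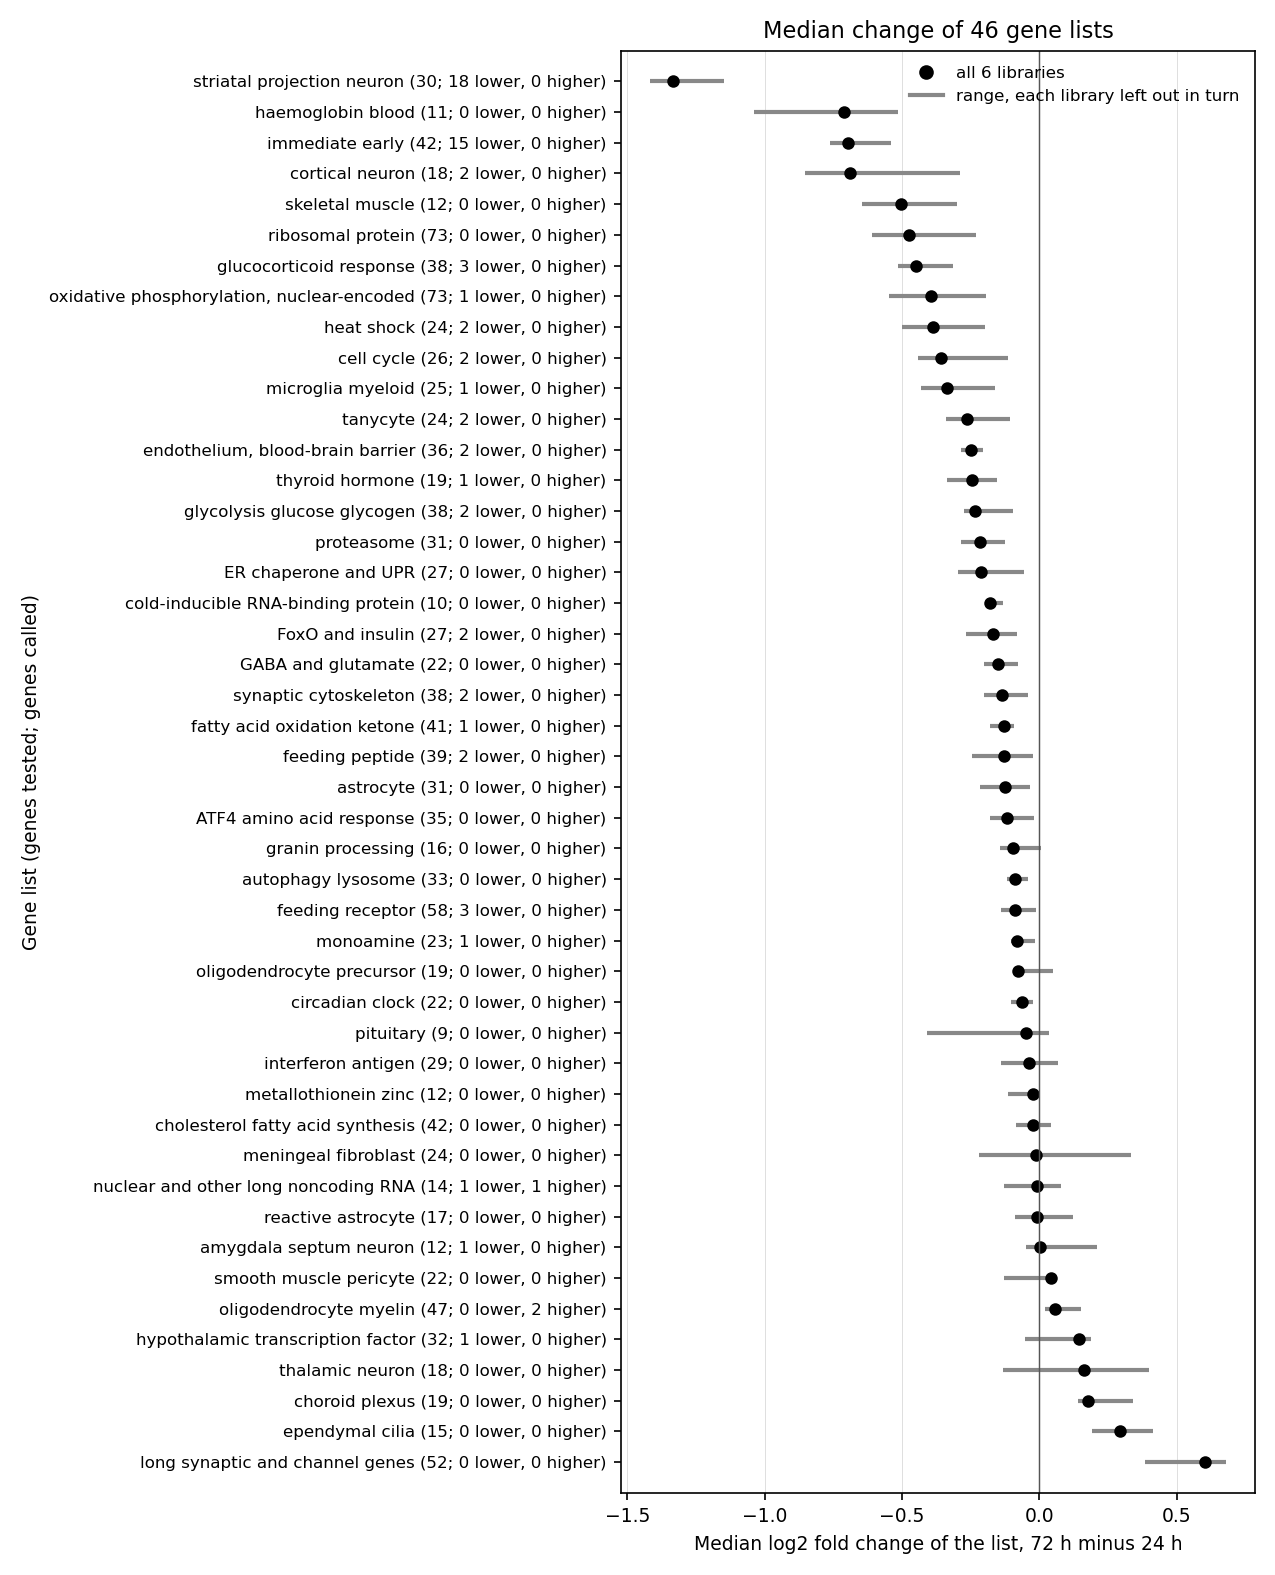
Median log2 fold change, 72 h minus 24 h, of 46 gene lists (dots), with the range of the median when each of the 6 libraries is left out in turn (grey lines) and the numbers of genes tested and called beside each name. Striatal genes stand at -1.34 and long synaptic and channel genes at 0.60; the liver list, at -4.85, is left off the axis.

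Albumin and fetuin A, proteins secreted by the liver, had RNA at 24 h and little at 72 h. Alb, albumin, had 0.406, 0.456 and 0.136 CPM at 72 h, against 31.1, 109 and 41.9 CPM at 24 h. Ahsg, fetuin A, had 0, 0 and 0.0227 CPM at 72 h, against 2.60, 6.50 and 3.20 CPM at 24 h, where 3 counts stand for 0.0812, 0.0911 and 0.0682 CPM in the 72 h libraries. The 14 tested liver and plasma protein genes summed to 197, 222 and 159 CPM at 72 h, against 199.9, 383 and 228 CPM at 24 h. Most of the 72 h sum was Trf, transferrin, also made by oligodendrocytes, with 188, 218 and 155 CPM at 72 h, against 149, 195 and 162 CPM at 24 h. Of the 14, 12 had every 72 h library below every 24 h library, where 17.1% of all genes did. EdgeR called 0, with 7 lower at an unadjusted p below 0.05, where 12.2% of all genes were. DESeq2 called 6 lower, where it called 5.02% of all genes lower. Without the fed group edgeR called 10 of 13 lower, where 365 of 20112 genes were. Fed libraries averaged 233 ± 327 CPM of Alb (SD, n = 3), a spread that enters the main fit.

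The genes called higher at 72 h had a longer median span than all tested genes. Their median span was 64.2 kb and their median level at 24 h 3.71 CPM. The genes called lower had a median span of 22.2 kb and 36.4 CPM, and all tested genes 21.9 kb and 10.9 CPM. The 24 h level enters the change itself, so genes called higher are low there by selection. Nothing is read from these levels. Among the 15 named for the largest rise were Vmn2r56, a vomeronasal receptor, Atp1a4, a sodium pump subunit of sperm, and Ros1, a receptor tyrosine kinase. Vmn2r56 (chromosome 7, 12688721 to 12735004) had 3.01, 2.04 and 1.34 CPM at 72 h, against 0.219, 0.0738 and 0.326 CPM at 24 h (3.30 ± 0.52, edgeR adjusted p = 0.0135). Atp1a4 had 5.36, 2.83 and 3.75 CPM at 72 h, against 1.10, 0.554 and 0.385 CPM at 24 h. Ros1 had 3.44, 4.62 and 4.59 CPM at 72 h, against 1.94, 0.923 and 1.42 CPM at 24 h (1.55 ± 0.30, edgeR adjusted p = 0.0263). Galnt5, a mucin-type glycosyltransferase, had 14.0, 14.3 and 18.3 CPM, against 7.63, 4.28 and 5.66 CPM (1.40 ± 0.26, edgeR adjusted p = 0.0227). Genes of the germ line, Tex35, Meiob, Morc1 and Piwil2, were also among the 15, with changes of 2.30, 1.69, 1.63 and 1.5.

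Of 14 nuclear and other long noncoding RNAs 1 was called higher and 1 lower, where 0.568% of all genes were called higher and 1.06% lower. Neat1, the architectural RNA of paraspeckles, had 68.1, 71.7 and 78.0 CPM at 72 h, against 48.3, 25.4 and 44.1 CPM at 24 h (0.88 ± 0.20, edgeR adjusted p = 0.0491). Bc1, a dendritic RNA that represses translation, had 1.54, 1.12 and 1.73 CPM at 72 h, against 4.07, 9.08 and 3.97 CPM at 24 h (-1.95 ± 0.37, edgeR adjusted p = 0.0262). Each call stands on the 24 h libraries unevenly, since library 2 held the lowest Neat1 and the highest Bc1 value, and without it edgeR called neither.

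The change of a gene went with its span. Over 20357 genes with a span in the GENCODE M21 annotation the median change was -0.20 below 5 kb, -0.07 between 5 and 20 kb and 0.37 above 200 kb, and Spearman's rho was 0.29 as a description across genes, which share these libraries and are not independent replicates. Of 52 long synaptic and channel genes 39 had every 72 h library above every 24 h library, where 17.1% of all genes did, and 28 were higher at an unadjusted p below 0.05, where 11.3% were. EdgeR called 0 of them and DESeq2 3 higher, where DESeq2 called 3.68% of all genes higher. Gria4, an AMPA receptor subunit, had 532, 561 and 604 CPM at 72 h, against 407, 271 and 377 CPM at 24 h. The list's median of 0.60 became 0.39 without library 2 of the 24 h group and -0.01 once each library's trend with span was removed. The list is of long genes, with a median span of 856200 bases. Removing the trend with span takes out a shared change of such genes by construction, so nothing is read from that value. The same correction moved the median of all genes to -0.07, raised the calls to 219 higher and 571 lower (2.8% lower) and left 24 striatal and 19 immediate early genes called lower. With 1 surrogate variable in the fit 4 striatal and 3 immediate early genes were called lower, where 29 of 20408 genes were, with list medians of -0.88 and -0.55.

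**Figure D5:**
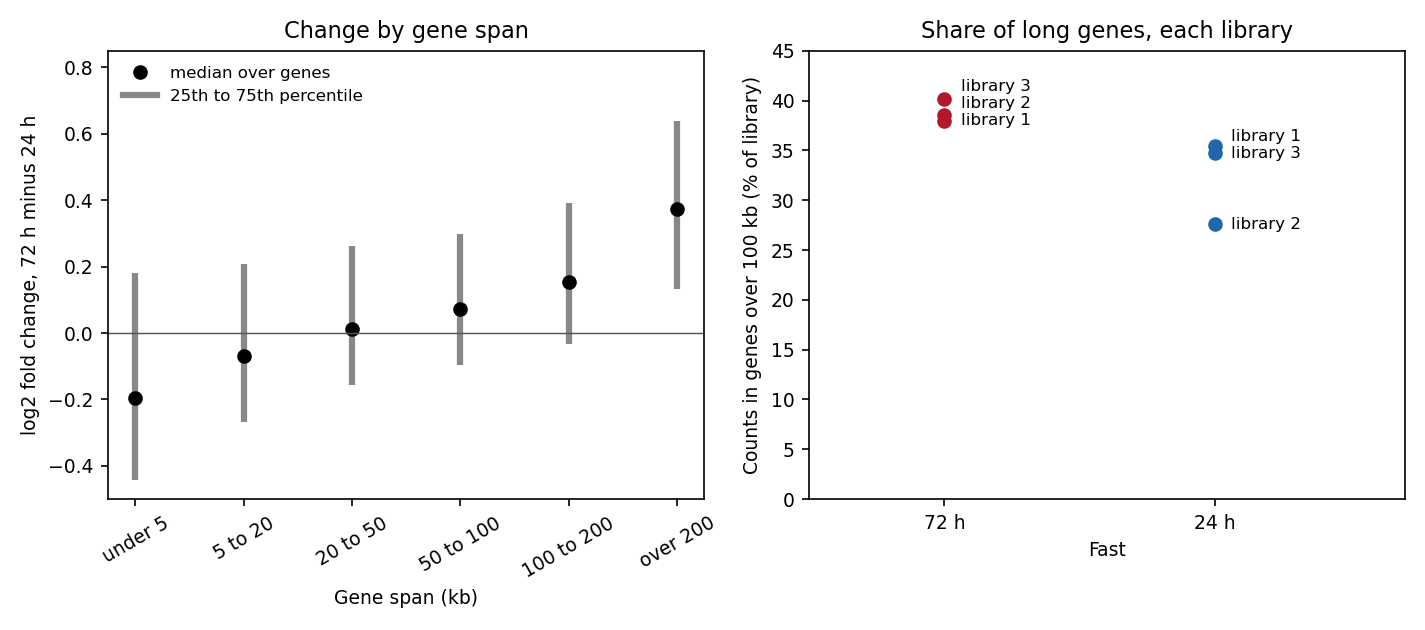
Left, log2 fold change of 72 h minus 24 h by gene span in kb, as medians (dots) with the 25th to 75th percentile over genes (bars). Right, share of each library's counts in genes over 100 kb, in percent; the 72 h libraries lie at 38.0 to 40.1% and the 24 h libraries at 27.6 to 35.5%, with library 2 lowest.

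The remaining large falls came from genes on none of the lists. Sh3rf2, an adaptor protein, had 2.41, 0.912 and 0.705 CPM at 72 h, against 14.6, 12.2 and 14.2 CPM at 24 h (-3.35 ± 0.68, edgeR adjusted p = 0.0398). Ptprv, a receptor phosphatase (chromosome 1, 135108497 to 135132594), had 0.379, 0.243 and 0.273 CPM at 72 h, against 2.97, 1.81 and 2.43 CPM at 24 h (-3.00 ± 0.37, edgeR adjusted p = 0.00800), and 18.3% of its span is shared with other genes. Cd4, the T helper cell co-receptor, had 0.758, 0.517 and 0.523 CPM at 72 h, against 3.97, 4.76 and 3.91 CPM at 24 h. Epyc, a small leucine-rich proteoglycan, had 2.76, 1.88 and 2.02 CPM at 72 h, against 11.5, 18.1 and 11.3 CPM at 24 h (-2.61 ± 0.37, edgeR adjusted p = 0.00929). Ptprv and Epyc were called in 4 of the 6 fits without a library, Cd4 in 2 and Sh3rf2 in 0.

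The authors' deposited table of this contrast lists 18381 protein-coding genes. There, in the authors' deposited table, a total of 369 had an adjusted p below 0.05. Of these, 122 had a positive and 247 a negative log2 fold change of 72 h over 24 h. In the authors' deposited table a total of 2713 had a q-value below 0.05, with 1529 positive and 1184 negative. Lower genes were thus the majority by the authors' adjusted p, and higher genes by the authors' q-value. The authors' adjusted p was the stricter measure, and how it was computed was not checked. Its counts are therefore not like for like with the 333 genes called here. Of the 333 genes called here 277 are in the authors' deposited table, all 277 with the same sign and a q-value below 0.05, and 159 with an adjusted p below 0.05. Fos stands at -2.01, Arc at -1.54, Drd1 at -2.76 and Opalin at 1.10 in the authors' deposited table. Slc2a1 has a q-value of 0.000193 and an adjusted p of 0.147 in the authors' deposited table, and so falls on either side of 0.05. Alb, not called here, has a log2 fold change of -7.50 and an adjusted p of 2.43e-36 in the authors' deposited table.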

How the data were processed

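Total RNA of whole hypothalamus was made into strand-marking, rRNA-depleted libraries, per the labels' protocols. The deposited table holds raw read counts per gene, 1 column a library. HISAT2, featureCounts, edgeR and the build mm10 are named in the submitters' processing notes, and strand use in counting is unstated there. The authors' deposited table of this contrast gives a log2 fold change with p-value, adjusted p-value and q-value per gene, per the file headers from a likelihood ratio test.

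The counts were fitted with edgeR 4.0.16 in R 4.3.3 (filterByExpr, TMM, robust quasi-likelihood F test) over the 12 libraries of the fasting table, which share 1 estimate of the spread, with the contrast 72 h minus 24 h and Benjamini-Hochberg adjustment over 20408 genes. CPM use TMM scaling and fitted changes a prior count of 0.125. Gene spans and their overlap with other genes are from GENCODE M21 (GRCm38). On simulated data with 200 of 20408 genes changed in this contrast, 94% of 3-fold and 17.5% of 1.5-fold changes were recovered, with 10 and 4 false calls. The changed genes had a mean of at least 50 counts. No outlying library and no trend with gene span were simulated, so these figures may not hold for the data. Alternatives used DESeq2 1.42.0, limma 3.58.1 (voom with quality weights) and sva 3.50.0, other scalings and filters, other groups in the fit, a replicate block, a correction for gene span and leaving out each library.

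Members and gene lists were chosen with earlier results of these data known, so the lists are no independent evidence. Named genes are the 15 called genes with the largest change in each direction (a symbol that is not a Gm, Rik or pseudogene-type name, a mean of at least 1 CPM, no overlap between groups), from each list up to 10 called members and up to 5 uncalled ones by smallest p, and fixed genes of feeding, stress and activity. Fmo2, Xdh, St18, Fosb, Klf2, Nr4a2, Nr4a3, Npas4, Pde10a, Adcy5, Mbp, Cx3cr1, the region markers given as levels and the histone and Vmn2r genes were chosen after their values were seen. Refeeding libraries were not used here, and 2 genes of the lists are not reported here.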

Additional observations from a re-analysis of the deposited data

How the results depend on the processing

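The number of called genes depended on the tool, the groups in the fit and single libraries. DESeq2 called 1776 genes (751 higher, 1025 lower), voom with quality weights 2910 (1615 higher, 1295 lower), edgeR without the fed group 818 (453 higher, 365 lower), without the cold group 191 (36 higher, 155 lower), with 1 surrogate variable 35 (6 higher, 29 lower), with the gene span correction 790 (219 higher, 571 lower) and with that correction and the replicate block 786 (235 higher, 551 lower). Lower genes were 65.2% of the calls in the main fit, but 44.5% under voom, 44.6% without the fed group, 81.2% without the cold group and 82.9% with the surrogate variable. Leaving out 1 library gave 0 to 328 calls, 0 to 69 higher and 0 to 259 lower. Other scalings and filters and the 2 groups fitted alone gave 266 to 419 calls. With the replicate block 399 were called (165 higher, 234 lower). Deviations of same-numbered 72 h and 24 h libraries from their group means had correlations of -0.10, 0.02 and 0.08. Those of different numbers lay between -0.14 and 0.12. With 3 libraries a group these values can neither show nor exclude a pairing. No named gene changed sign between called values. Of 71 called named genes 71 stayed called under DESeq2, voom, without the fed group and with the span correction, and 11 with the surrogate variable. The causes were not tested. With 3 libraries a group, 1.5-fold changes were mostly below what this fit could call.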

Other observations

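Replication-dependent histone genes, a set chosen after values were seen, were lower in the 72 h libraries. Of 56 tested, edgeR called 6 lower (10.7%, against 1.06% of all genes) and 0 higher, with a median change of -0.94. H3c10 had 2.17, 2.37 and 2.30 CPM at 72 h, against 4.51, 8.49 and 4.77 CPM at 24 h (-1.37 ± 0.23, edgeR adjusted p = 0.0146). H3c2 had 2.25, 1.61 and 1.98 CPM at 72 h, against 4.38, 7.79 and 4.09 CPM at 24 h. These genes have a median span of 593 bases. Without library 2 of the 24 h group 3 were called, without libraries 1 or 3 of it 11 and 6, and without library 1 of the 72 h group 1. Over all genes those fits called 64, 259, 107 and 69 lower. Without library 2 or 3 of the 72 h group 0 were called by edgeR. DESeq2 called 29 lower with all libraries, where it called 5.02% of all genes lower.

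Vomeronasal type 2 receptor genes, also chosen after values were seen, had 4 members called higher, among 26 of 125 that passed the filter on low counts (0.568% of all genes were called higher). Members can pass that filter through the groups where they are high, so nothing is read from this count. Vmn2r1 had 6.85, 6.65 and 6.75 CPM at 72 h, against 3.19, 3.36 and 3.38 CPM at 24 h, with tight groups (1.03 ± 0.22, edgeR adjusted p = 0.0390). Vmn2r2 had 2.73, 1.85 and 2.02 CPM at 72 h, against 0.782, 0.480 and 0.740 CPM at 24 h. Many receptors of this family have close copies in clusters, so the counting could have split or shared their reads. This was not measured for the genes given here. Without library 1 of the 24 h group 2 were called, and without any 1 of library 2 or 3 of it or library 1 of the 72 h group 1 each. Without library 2 or 3 of the 72 h group 0 were called by edgeR. DESeq2 called 7 higher with all libraries, where it called 3.68% of all genes higher.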
